A study of Danio rerio with 12 samples.

Results

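Zebrafish embryos that carried an activated BRAF transgene, with no p53 mutation named in their label, were compared with wild-type embryos at 80 hours post fertilization. The comparison took the 3 arrays titled BRAF and the 3 titled Tu, which are 6 of the 12 arrays of the study, across the 15502 probe sets left without the 115 Affymetrix controls. BRAF embryos were homozygous for a stable tg(mitf-BRAFV600E) allele, in which the mitf promoter drives BRAF with the V600E change. Wild-type embryos were of the Tu line. The other 6 arrays held 3 of BRAF;p53 embryos, which had the same transgene together with p53-M214K -/-, and 3 of p53 embryos, which were p53-M214K -/- without the transgene. The labels number p53 replicates 1 and 2 as 1a and 1b, so they may come from 1 sample. They are counted separately here, and with both averaged 959 probe sets differed between BRAF and wild type (993 as reported) and 964 between BRAF and the mean of the other lines (1103 as reported). Embryos of every genotype came from incrosses of fish of that genotype and reached the same stage, and total RNA of whole embryos was hybridised. The transgene and any other difference between the BRAF line and the Tu line therefore cannot be told apart. The labels give neither the number of embryos or clutches in an RNA sample nor the number of founders of the line, so the p-values describe the spread among these arrays alone, and that may be technical. In whole embryos, fewer cells of a type and less RNA per cell cannot be told apart.

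BRAF is a kinase of the RAS, RAF, MEK and ERK cascade, and the V600E change keeps it active without an upstream signal. ERK activity switches on genes that feed back on it, among them those of the Sprouty, Spred and dual specificity phosphatase families. Mitf is the transcription factor that commits neural crest cells to the melanocyte fate, so the mitf promoter works in pigment cells and their precursors. BRAF V600E is frequent in human melanocytic nevi and melanoma, and p53 stops or kills cells after oncogenic or DNA damage signals.

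Each probe set was deposited on the log2 scale relative to about its own median over the 12 arrays, so a value of 0 is that median and not absence. Values below are on this scale, a difference is BRAF minus wild type with its SE (n = 3 arrays per genotype), and "called" means a limma adjusted p under 0.05. The SE is that of the limma fit, which draws on the spread within all 4 genotypes. It is therefore not the spread of the BRAF and wild-type arrays alone. BRAF differed from wild type in 993 probe sets, 6.41% of those tested, 494 (3.19%) of them upward and 499 (3.22%) downward. Counted by gene, 640 of 8793 named genes had a called probe set (7.28%), 326 (3.71%) with a rise and 324 (3.68%) with a fall. These counts of rises and falls moved with the setting, and list counts below are to be read beside them. They were 260 and 372 after quantile normalization, 287 and 378 with centred array medians, and 326 and 323 with a replicate block. Without BRAF replicate 1 they were 348 and 446, and with only the genotypes compared 192 and 199. BRAF and wild-type arrays were apart in 992 of the 993 calls, against 28.4% of all probe sets, 18.7% with BRAF higher and 9.64% with BRAF lower. Being apart therefore adds no support to a call, and the largest rises and falls below were chosen among calls without overlap. Most called differences were modest: the median was 0.77 for those higher and -0.83 for those lower, and the smallest called difference was 0.30. Calls of at least 1 in size numbered 350, and 85 were of at least 2, of which 33 were higher and 52 lower. The median difference over all 15502 probe sets was 0.047.

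BRAF replicate 1 stood apart from the other arrays. Its median over all probe sets was 0.081, against -0.036 to -0.002 on the other 11, and its 7 bacterial hybridisation control spots had a median of 0.63, against -0.22 to 0.26. Its correlation with the other BRAF arrays over probe sets was 0.56 and 0.41. In this it was not alone, as p53 replicate 3 had 0.47 and 0.48 with the other p53 arrays. The remaining pairs of 1 genotype had 0.67 to 0.84. Without BRAF replicate 1, 1188 probe sets were called, without wild-type replicate 2 the count was 595, and without wild-type replicate 1 it was 645. In all 12 fits that each left out 1 array, 477 probe sets (3.08%) were called, and each gene below is given with its number of such fits where it is under 12. The part of the BRAF replicate 1 array in the gene-level results was not tested beyond these fits.

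The ERK feedback inhibitor spry4 had 0.23, 0.48 and 0.27 in BRAF, against -0.27, -0.35 and -0.29 in wild type. All BRAF arrays lay above all wild-type arrays, with a difference of 0.63 ± 0.09 (limma adjusted p = 0.00181). A pair of further feedback genes had weaker support. The gene errfi1a, whose product inhibits the EGF receptor, had 0.12, 0.42 and 0.26 in BRAF and -0.39, -0.08 and -0.23 in wild type. It rose by 0.50 ± 0.11 (limma adjusted p = 0.0218), its other probe set had 0.47, and the call held in 8 of 12 fits (up to 0.0868 without wild-type replicate 1). The Ras inhibitor gene spred1 had 0.72, 0.50 and 0.72 in BRAF, against 0.10, 0.06 and -0.26 in wild type. Its rise of 0.68 ± 0.17 (limma adjusted p = 0.041) was called on 1 of 4 probe sets, the others being at 0.08 to 0.30, and held in 3 of 12 fits (up to 0.132 without wild-type replicate 3). The BRAF;p53 line, with the same transgene, had means of 0.41 in spry4, 0.04 in errfi1a and -0.24 in spred1. In p53 the means were -0.39, -0.002 and -0.19, in the order given. The spred1 rise was thus not seen in BRAF;p53, and errfi1a there lay near p53.

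Of 25 measured genes of ERK pathway output, 3 were called higher (12.0%, against 3.71% of all genes) and 0 lower. The median over its 41 probe sets was 0.10, against 0.039 over all named probe sets, and 10 of the 41 (24.4%, against 18.7% of all probe sets) were higher without overlap and 0 lower. Members that did not pass included the phosphatase gene dusp6, at 0.08 and 0.07 on its 2 probe sets, and the ERK-induced transcription factor genes etv5a, at 0.40 and 0.05, and etv4, at -0.12. The immediate early gene fosab had differences of 0.09 to 0.44 on 4 probe sets with wide spread, for example -0.05, 0.78 and 0.45 in BRAF against 1.03, -0.57 and -0.59 in wild type. After quantile normalization or with centred array medians, 2 genes of the list were called higher in place of 3. Array by array, the list medians were 0.16, 0.11 and 0.03 in BRAF and 0.07, -0.08 and -0.12 in wild type. In BRAF;p53 they were -0.04, -0.08 and -0.14.

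No gene of the 3 pigment cell lists was called in either direction: 0 of 7 genes for melanophores, 0 of 5 for xanthophores and 0 of 3 for iridophores. Over all genes the share was 7.28%, and at that share lists this short would hold few calls or none. Of the xanthophore genes, 1 was higher after quantile normalization, 1 higher and 1 lower with centred array medians, and 1 lower with a replicate block or without BRAF replicate 1. The melanocyte regulator mitfa had 0.38, 0.00 and -0.16 in BRAF, against -0.32, 0.16 and -0.09 in wild type, and these ranges overlapped (difference 0.15 ± 0.18). Of the melanin synthesis genes, dct had a difference of 0.29 ± 0.30 and tyr of -0.09 ± 0.18 (limma adjusted p = 0.615 and 0.808). Among xanthophore genes, the receptor kinase gene csf1ra had 0.71, 0.35 and 0.09 in BRAF and -0.14, -0.12 and -0.05 in wild type (difference 0.49 ± 0.13, limma adjusted p = 0.0525). The pteridine synthesis gene gch2 went the other way without passing, at -0.75 ± 0.21 (limma adjusted p = 0.0562) and -0.54 on its 2 probe sets. Array by array, the medians of the melanophore list were 0.27, -0.0030 and -0.16 in BRAF and -0.22, -0.088 and -0.13 in wild type, the highest being on BRAF replicate 1.

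The neural crest transcript crestin lay near the threshold and was not called. It had 0.08, -0.02 and 0.02 in BRAF, against -0.75, -0.42 and -0.52 in wild type. These ranges did not overlap, yet the difference of 0.59 ± 0.16 had a limma adjusted p of 0.0598. It passed in 2 of 12 fits, those without p53 replicate 2 (limma adjusted p = 0.0272) or p53 replicate 3 (0.02). Without any 1 of the BRAF or wild-type arrays it did not pass (0.0952 to 0.195, the highest without wild-type replicate 1). It also passed after quantile normalization (limma adjusted p = 0.0481), with trend and robust eBayes (0.0476), with array weights (0.00904), with only the genotypes compared (0.0406) and with p53 replicates 1 and 2 averaged (0.0459), but not with centred array medians (0.0822) or a replicate block (0.0819). The array weights of BRAF replicates 1, 2 and 3 were 0.181, 5.27 and 0.769, so that fit leaned on replicate 2. Wild type was low for crestin against every other line, also the p53 line without the transgene. The means were -0.56 in wild type, 0.03 in BRAF, 0.66 in BRAF;p53 and -0.04 in p53. BRAF minus the mean of the other lines was -0.28 (limma adjusted p = 0.249). Of 11 measured neural crest genes, 2 were called lower (18.2%, against 3.68% of all genes), each on 1 of several probe sets and each in few of the fits. The crest and epithelial transition factor gene snai2 had -0.52, -0.25 and -0.59 in BRAF, against 0.03, 0.02 and 0.07 in wild type. It fell by 0.49 ± 0.12 (limma adjusted p = 0.0387), while its companions had -0.14 and 0.12, and the call held in 4 fits (up to 0.119 without BRAF replicate 3). The paired box gene pax7a had -0.38, -0.21 and -0.64 in BRAF and 1.27, 1.38 and 0.09 in wild type, a fall of 1.32 ± 0.33 (limma adjusted p = 0.039). Its other probe sets had -0.26 to 0.19, and the call held in 3 fits (up to 0.149 without wild-type replicate 2). Without BRAF replicate 1, 0 genes of the list were called, and after quantile normalization 1 was higher and 1 lower. The crest regulator sox10 had a difference of -0.16 ± 0.16.

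Of 24 measured p53 targets, 0 were called, against 7.28% of all genes. Their differences ran from -0.38 to 0.41 over 30 probe sets, with a median of 0.077. The p53 inhibitor gene mdm2 had -0.16 ± 0.17 and the cyclin gene ccng1 had 0.01 ± 0.10 (limma adjusted p = 0.625 and 0.96).

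The largest rise was in wls, which encodes the carrier that Wnt proteins need for secretion. It had 6.60, 5.21 and 6.17 in BRAF, against -1.19, -1.16 and -1.05 in wild type, a difference of 7.13 ± 0.93 (limma adjusted p = 0.00112). Its other probe sets had -0.25 and 0.16, so the rise was on 1 probe set of 3. The melanin-concentrating hormone receptor gene mchr1b had 2.09, 1.23 and 1.09 in BRAF and -2.05, -2.64 and -2.31 in wild type, a rise of 3.81 ± 0.25 (limma adjusted p = 1.14e-05). The same gene's other probe set had 0.06. The gene abat encodes the transaminase that breaks down the neurotransmitter GABA. It had 1.73, 2.30 and 2.07 in BRAF, against -1.09, -0.75 and -0.83 in wild type, with 2.92 ± 0.20 between them (limma adjusted p = 1.26e-05). The plasma ferroxidase and copper protein gene cp had 1.72, 1.33 and 1.47 in BRAF and -1.26, -1.20 and -0.98 in wild type. Neither gene had another probe set, and neither pair of groups overlapped.

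Other large rises came with less known about the product. The cerebellin-like gene cbln11 had 1.21, 1.80 and 1.1 in BRAF, against -1.57, -1.67 and -1.55 in wild type. The peptidase family gene pm20d1.1 had 2.24, 2.31 and 2.77 in BRAF, against 0.01, -1.44 and -0.01 in wild type. The membrane protein gene tmem263 had 1.74, 1.84 and 1.83 in BRAF and -0.58, -1.70 and -1.37 in wild type, and its other probe sets had -0.41 and 0.02. The differences in these 3 genes were 2.97 ± 0.19, 2.92 ± 0.51 and 3.02 ± 0.26, in the order given. The unnamed loci si:dkeyp-73d8.9 and si:dkey-247k7.2 rose by 5.44 ± 0.54 and 2.84 ± 0.21, and neither had a further probe set.

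The neural progenitor transcription factor gene sox19b rose on both of its probe sets, which have different targets. The first had 2.67, 1.71 and 2.02 in BRAF, against -0.75, -0.45 and -0.59 in wild type (difference 2.73 ± 0.31, limma adjusted p = 0.000439). The other had 2.09, 0.84 and 1.34 in BRAF, against -0.74, -0.32 and -0.33 in wild type (difference 1.89 ± 0.34, limma adjusted p = 0.00736). No array of one group reached the other on either probe set. It was the only gene called higher among 179 measured developmental transcription factor genes, of which 1.12% had a call, against 7.28% of all genes.

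Among the falls, ube2q2, an E2 ubiquitin conjugating enzyme gene, had -5.51, -6.36 and -6.36 in BRAF, against 0.12, -0.13 and 0.35 in wild type. The difference was -6.19 ± 0.33 (limma adjusted p = 1.82e-06), and the gene had no other probe set. The RING ubiquitin ligase gene rnf13 had -3.33, -3.26 and -2.27 in BRAF and 1.19, 1.32 and 1.59 in wild type, a difference of -4.32 ± 0.30 (limma adjusted p = 1.55e-05). The type I collagen chain gene col1a2 had -2.39, -2.56 and -3.61 in BRAF, against 1.05, 1.04 and 1.28 in wild type. The arrays were apart in each of the 3 genes. Another col1a2 target was also called lower, but by 0.43 ± 0.11 (limma adjusted p = 0.0404), with -0.18, -0.23 and -0.30 in BRAF and 0.16, 0.18 and 0.24 in wild type. That smaller fall held in 4 of 12 fits (up to 0.116 without wild-type replicate 3).

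The coatomer subunit gene copb2, of the coat that carries cargo back to the endoplasmic reticulum, had -2.96, -3.71 and -4.17 in BRAF, against -1.29, 0.32 and -0.53 in wild type. Its difference was -3.12 ± 0.40 (limma adjusted p = 0.000918), while its other probe sets had -0.03 and 0.11. The axon degeneration enzyme gene sarm1 had -1.71, -2.53 and -2.28 in BRAF and 0.90, 0.83 and 0.72 in wild type. The galectin gene lgals3b had -2.21, -3.42 and -2.84 in BRAF and 0.34, -0.06 and 0.21 in wild type. Both were at -2.99, with SEs of 0.22 and 0.26, and had no further probe set. The neuronal ubiquitin hydrolase gene uchl1 was uneven within BRAF, at -4.02, -2.32 and -1.46, against 0.04, 0.26 and 0.25 in wild type (difference -2.78 ± 0.47, limma adjusted p = 0.0047). The activin receptor gene acvr2ba had -2.37, -1.89 and -1.75 in BRAF, against 1.1, 1.25 and 0.05 in wild type, and its other probe sets had -0.22 and 0.03. In this last gene, too, the BRAF arrays lay below every wild-type array. The locus si:dkey-238c7.12 and the membrane protein gene tmem254 had differences of -3.40 ± 0.25 and -3.07 ± 0.22, and tmem254 had 0.36 on its other probe set.

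**Figure D1:**
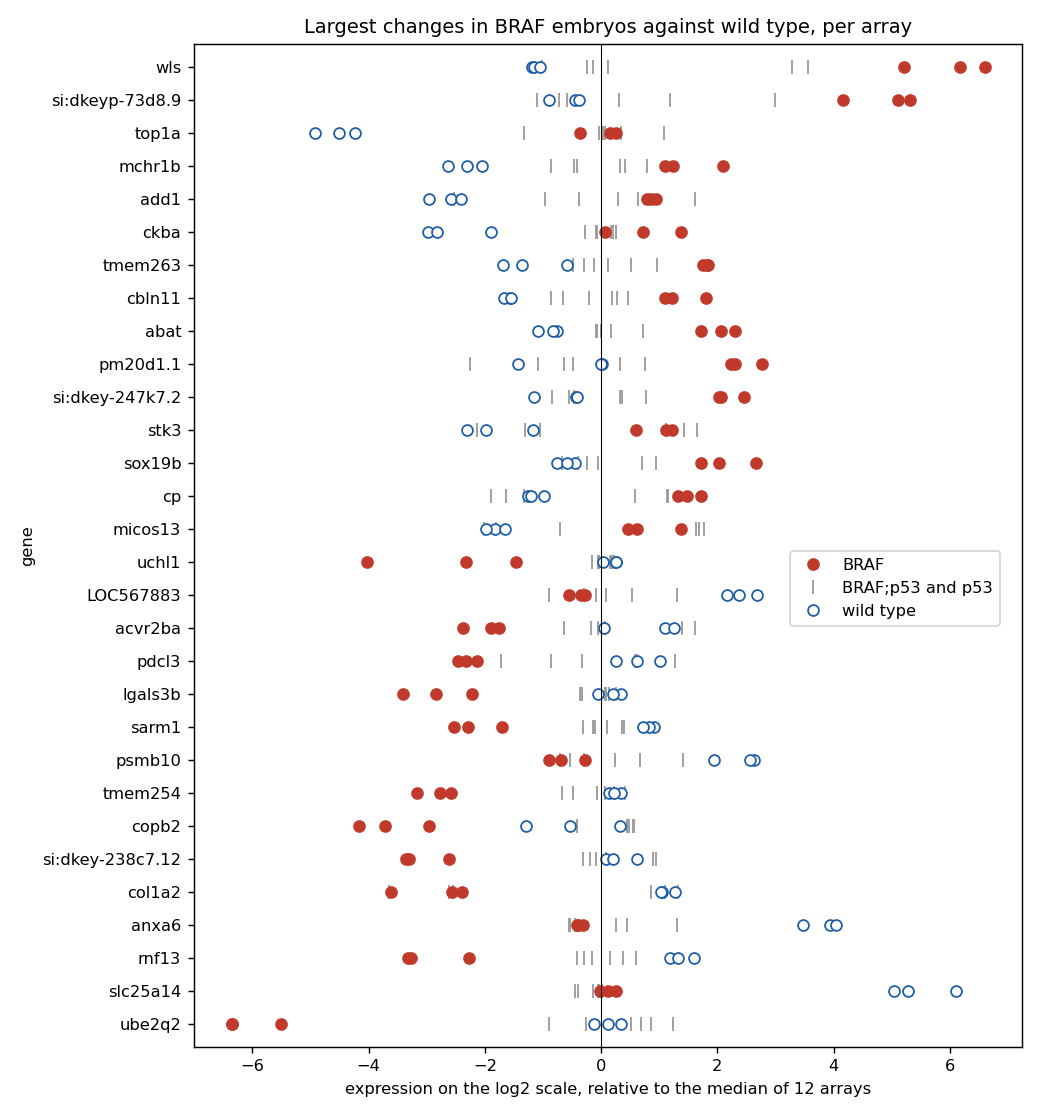
Expression per array of the genes that rose most (15) and fell most (15) in BRAF against wild type, on the log2 scale relative to the median of the 12 arrays. Filled points are the 3 BRAF arrays, vertical ticks the 6 BRAF;p53 and p53 arrays and open points the 3 wild-type arrays. In ube2q2 and rnf13 the BRAF points stand away from the other genotypes, while in top1a, slc25a14 and anxa6 the wild-type points do. In wls, BRAF;p53 replicates 1 and 3, at 3.29 and 3.55, also lie well above wild type, with replicate 2 at -1.02.

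In several of the largest changes wild type stood apart from all 3 other genotypes. The topoisomerase gene top1a had -0.36, 0.16 and 0.25 in BRAF, against -4.23, -4.52 and -4.93 in wild type, a difference of 4.57 ± 0.37 (limma adjusted p = 4.03e-05). BRAF minus the mean of the BRAF;p53 and p53 lines was -0.01 for it (limma adjusted p = 0.987), a contrast in which 7.12% of probe sets were called, 3.95% higher and 3.16% lower. The mitochondrial carrier gene slc25a14 had 0.25, -0.01 and 0.12 in BRAF, against 5.05, 5.29 and 6.10 in wild type, and BRAF minus the other lines was 0.30 (limma adjusted p = 0.357). Its other probe sets had -5.25 and 0.30 between BRAF and wild type. The membrane-binding annexin gene anxa6 had -0.31, -0.41 and -0.40 in BRAF, against 3.48, 3.95 and 4.04 in wild type, and BRAF minus the other lines was -0.45 (limma adjusted p = 0.193). For these genes the BRAF arrays were near the other lines and far from wild type.

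The sulfotransferase gene sult1st1 had -0.18, -0.32 and -0.03 in BRAF, against 2.27, 2.21 and 2.14 in wild type, a difference of -2.39 ± 0.11 (limma adjusted p = 6.32e-07). Its BRAF;p53 mean was -0.02 and its p53 mean 0.07. The immunoproteasome subunit gene psmb10 had -0.28, -0.90 and -0.68 in BRAF, against 2.63, 2.55 and 1.94 in wild type, with 1.4, -0.71 and 0.23 in BRAF;p53 and -0.29, -0.53 and 0.67 in p53. The brain creatine kinase gene ckba had 0.06, 1.38 and 0.73 in BRAF, against -2.99, -1.90 and -2.82 in wild type, with a mean of 0.03 in both other lines and -0.41 between BRAF and wild type on its other probe set. LOC567883 had -0.28, -0.35 and -0.56 in BRAF and 2.16, 2.37 and 2.68 in wild type, with -0.89 to 1.302 in BRAF;p53 and -0.09 to 0.52 in p53. In psmb10 and LOC567883, BRAF;p53 replicate 1 was the nearest to wild type of the BRAF;p53 arrays. BRAF did not pass against the other lines in any of these 4 genes, and the differences were -0.20 ± 0.097, -0.75 ± 0.40, 0.69 ± 0.29 and -0.50 ± 0.37, in the order given.

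Another arrangement joined the transgenic lines. The Hippo kinase gene stk3 had 1.12, 0.60 and 1.21 in BRAF, against -2.32, -1.98 and -1.18 in wild type, with means of 1.399 in BRAF;p53 and -1.496 in p53. The mitochondrial cristae gene micos13 had 0.62, 1.37 and 0.47 in BRAF, against -1.83, -1.98 and -1.65 in wild type, with means of 1.69 in BRAF;p53 and -1.51 in p53. The adducin gene add1, of the membrane skeleton, had 0.95, 0.80 and 0.85 in BRAF and -2.97, -2.58 and -2.41 in wild type, with means of 0.85 in BRAF;p53 and -1.29 in p53. This gene was less clear, as its p53 arrays were at -0.96, -0.37 and -2.52. In p53 replicates 1 and 2 it lay between wild type and the transgenic lines. The collagen gene col1a2 lay low in both transgenic lines, with a BRAF;p53 mean of -2.94 and a p53 mean of 1.09. For cp the order was different, with means of -1.62 in BRAF;p53 and 0.95 in p53.

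Other large changes also set BRAF apart from the mean of the other lines. Passing this contrast does not show a difference from each line. The contrast with the mean of the other lines shares the BRAF arrays with the contrast against wild type, so its values are given only beside those above. For ube2q2 it was -6.43 (limma adjusted p = 6.06e-07), for copb2 -3.96 (limma adjusted p = 9.68e-05) and for lgals3b -2.79 (limma adjusted p = 6.51e-05). For wls it was 5.07 (limma adjusted p = 0.00392), though 2 of the 3 BRAF;p53 arrays were also high, at 3.29 and 3.55, with the remaining one at -1.02. Of the 30 largest changes, those that did not pass against the other lines were top1a, add1, ckba, stk3, micos13, slc25a14, anxa6, psmb10 and LOC567883.

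Many genes are read by several probe sets, and these often disagreed on the size of a change. Called genes with a probe set of another target numbered 102, with 134 such companions. Of these, 81 (60.4%) had the same sign as the call, 13 were called the same way and 6 the opposite way. Of all probe sets, 3.19% were called higher and 3.22% lower. In 18 of the 102 genes a companion reached at least 0.5 of the called difference. Where the call was of at least 2 in size, 15 genes had 22 such companions, of which 13 had the same sign, and in 2 genes one reached at least 0.5 of it. Companions of the same target had the same sign in 97 of 126 cases (77.0%). What the probe sets of another target measure, such as another transcript end or a related gene, was not tested.

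**Figure D2:**
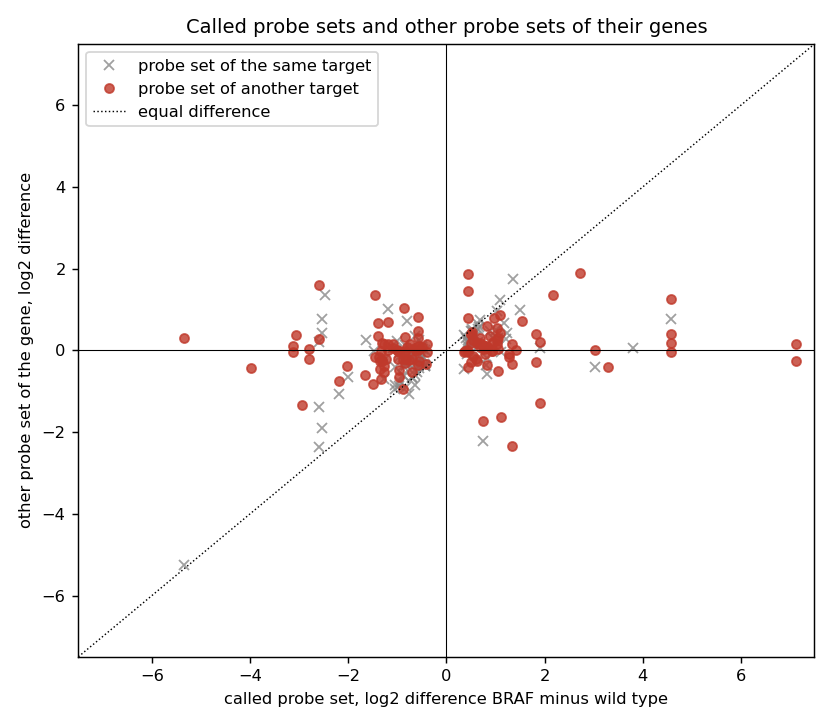
Log2 difference of each called probe set (horizontal axis) against that of another probe set of the same gene (vertical axis), both BRAF minus wild type. Circles are probe sets of another target, crosses those of the same target, and the dotted line marks equal differences. Of the 134 circles 81 lie on the same side of 0 as the call, and most companions of the largest changes lie near 0.

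The genes in which different targets were called the same way give changes that do not rest on 1 probe set. All targets were read from the same arrays and RNA. Beside sox19b, the transcriptional coactivator gene ppargc1b, a driver of mitochondrial oxidative metabolism, rose on both of its targets. It had 1.395, 1.93 and 1.86 in BRAF and -1.03, -0.13 and -0.15 in wild type on the first, and 0.80, 1.41 and 1.35 in BRAF against -0.42, -0.09 and 0.04 in wild type on the other. The differences were 2.16 ± 0.25 and 1.34 ± 0.18 (limma adjusted p = 0.00054 and 0.00138), and the groups were apart on both. The carnitine palmitoyltransferase gene cpt2, which lets mitochondria burn long-chain fatty acids, also rose on both, by 0.96 ± 0.12 and 0.80 ± 0.17 (limma adjusted p = 0.00076 and 0.0148). Its first probe set had 0.76, 0.76 and 0.57 in BRAF, against -0.09, -0.44 and -0.28 in wild type, and the call of its other one held in 9 of 12 fits (up to 0.058 without wild-type replicate 3). The phosphatase gene ptp4a3b was called at 1.09 and 0.43, and a further probe set at 0.86 was not called (limma adjusted p = 0.0747). The call at 0.43 held in 11 fits, with an adjusted p of 0.0509 without wild-type replicate 3. The autophagy receptor gene nbr1b had 0.52 and 0.46 on its called probe sets and -0.05 on another, and these calls held in 7 and 5 fits (up to 0.111 and 0.112 without wild-type replicate 2). For top1a one further target was called, at 1.27, a companion of the leading probe set's own target was called at 0.76, and 3 more probe sets had values down to -0.03. These further calls held in 11 and 8 fits, with at most 0.0548 without wild-type replicate 1 and 0.105 without wild-type replicate 2.

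Among falls, the phosducin-like gene pdcl3, which takes part in protein folding with the chaperonin, was lower on both targets. It had -2.33, -2.14 and -2.46 in BRAF, against 0.26, 0.61 and 1.00 in wild type, and -0.64, -1.20 and -0.92 in BRAF against 0.34, 0.39 and 0.49 in wild type. The differences were -2.94 ± 0.32 and -1.33 ± 0.17 (limma adjusted p = 0.000332 and 0.00103), without overlap. The actin-associated gene limch1b had -2.18 ± 0.14 and -0.75 ± 0.13 (limma adjusted p = 7.42e-06 and 0.00454), with -1.39, -1.60 and -1.73 in BRAF against 0.47, 0.68 and 0.69 in wild type on the larger. The tetraspanin gene cd82b was called at -1.27 and -0.38, the smaller in 6 fits (up to 0.12 without wild-type replicate 2), and had -0.71 on a further probe set. The makorin gene mkrn4 was called at -0.97 and -0.47, the smaller in 2 fits (up to 0.143 without wild-type replicate 3), with -0.87 on another. The chaperone gene hsp90aa1.2 had -0.89 and -0.95, and zgc:111986 had -0.96 and -0.64 with -0.01 on its remaining probe set. The call at -0.95 held in 8 fits (up to 0.093 without wild-type replicate 2). Against the mean of the other lines, BRAF did not pass in cd82b, mkrn4, hsp90aa1.2 or zgc:111986 (limma adjusted p = 0.0777 to 0.804). Their falls are thus not shown to be particular to BRAF embryos. The larger mkrn4 fall had means of 1.11 in wild type, 0.15 in BRAF, -0.17 in BRAF;p53 and -0.38 in p53. On their smaller falls, pdcl3 and limch1b passed (limma adjusted p = 0.00643 and 0.00491).

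In other genes probe sets were called in opposite directions. The glucose-6-phosphate transporter gene slc37a4a had -2.37, -2.13 and -1.60 in BRAF, against 0.96, -0.02 and 0.40 in wild type, on one probe set. On another of the same target it had 1.103, 1.21 and 0.96 in BRAF, against -0.13, -0.68 and 0.03 in wild type. The thymidine kinase gene tk1 had -0.80 ± 0.13 and 0.72 ± 0.13 (limma adjusted p = 0.00341 and 0.0077). The Notch feedback gene nrarpa had 1.91 ± 0.26 and -1.29 ± 0.25 (limma adjusted p = 0.00136 and 0.0102), with 0.07 and 0.20 on 2 more. The vesicle fusion gene snap29 had 1.11 ± 0.19 and -1.64 ± 0.34, the fall in 10 fits (up to 0.0561 without wild-type replicate 3). No direction is given for these 4 genes.

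Of the gene lists, the annexins, calcium-dependent membrane-binding proteins, had the highest share of called genes among lists with at least 10 measured genes: 5 of 14, all lower (35.7%, against 3.68% of all genes). Lists were chosen with earlier results of these data known, and anxa6 was among the 15 largest falls. This rank is therefore a description and not a test of the family. The median over the 20 annexin probe sets was -0.34, 15 were below 0, and 12 were lower without overlap (9.64% of all probe sets were). The membrane repair and phosphatidylserine-binding gene anxa5b had -0.71, -0.40 and -0.39 in BRAF, against 0.12, 0.02 and 0.01 in wild type, and fell by 0.55 ± 0.10 (limma adjusted p = 0.00867). Its other probe sets had -0.43 to 0.10. The gene anxa1c, of the family of the anti-inflammatory annexin A1, had -0.77, -1.06 and -1.28 in BRAF and 0.28, 0.80 and 0.14 in wild type, with -1.44 ± 0.33 between them (limma adjusted p = 0.0254). In both genes the BRAF arrays lay below all wild-type arrays. The differences of -1.08 ± 0.25 in anxa2b and -0.36 ± 0.09 in anxa11b had limma adjusted p of 0.0286 and 0.0398. Against the mean of the other lines, BRAF did not pass in anxa6, as given above. Nor did it in anxa2b, at -0.42, or anxa11b, at -0.20 (limma adjusted p = 0.26 and 0.155). In anxa5b it passed, at -0.51 (limma adjusted p = 0.00661). The falls in anxa6, anxa2b and anxa11b are thus not shown to be particular to BRAF embryos. The call for anxa1c held in 8 fits (up to 0.106 without wild-type replicate 2), for anxa2b in 8 (0.0895 without BRAF replicate 3) and for anxa11b in 3 (0.131 without wild-type replicate 3), while anxa6 and anxa5b held in all 12. Members that did not pass ran from anxa3b at -0.64 and anxa1d at -0.61 and -0.52 to anxa2a at 0.19 and anxa13l at 0.37. Without BRAF replicate 1, 3 annexin genes were lower and 1 higher, with 7 lower after quantile normalization and 2 lower with only the 6 arrays of both genotypes. Of all 8793 named genes, 446, 372 and 199 were lower in these settings, in the order given, against 324 as reported.

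**Figure D3:**
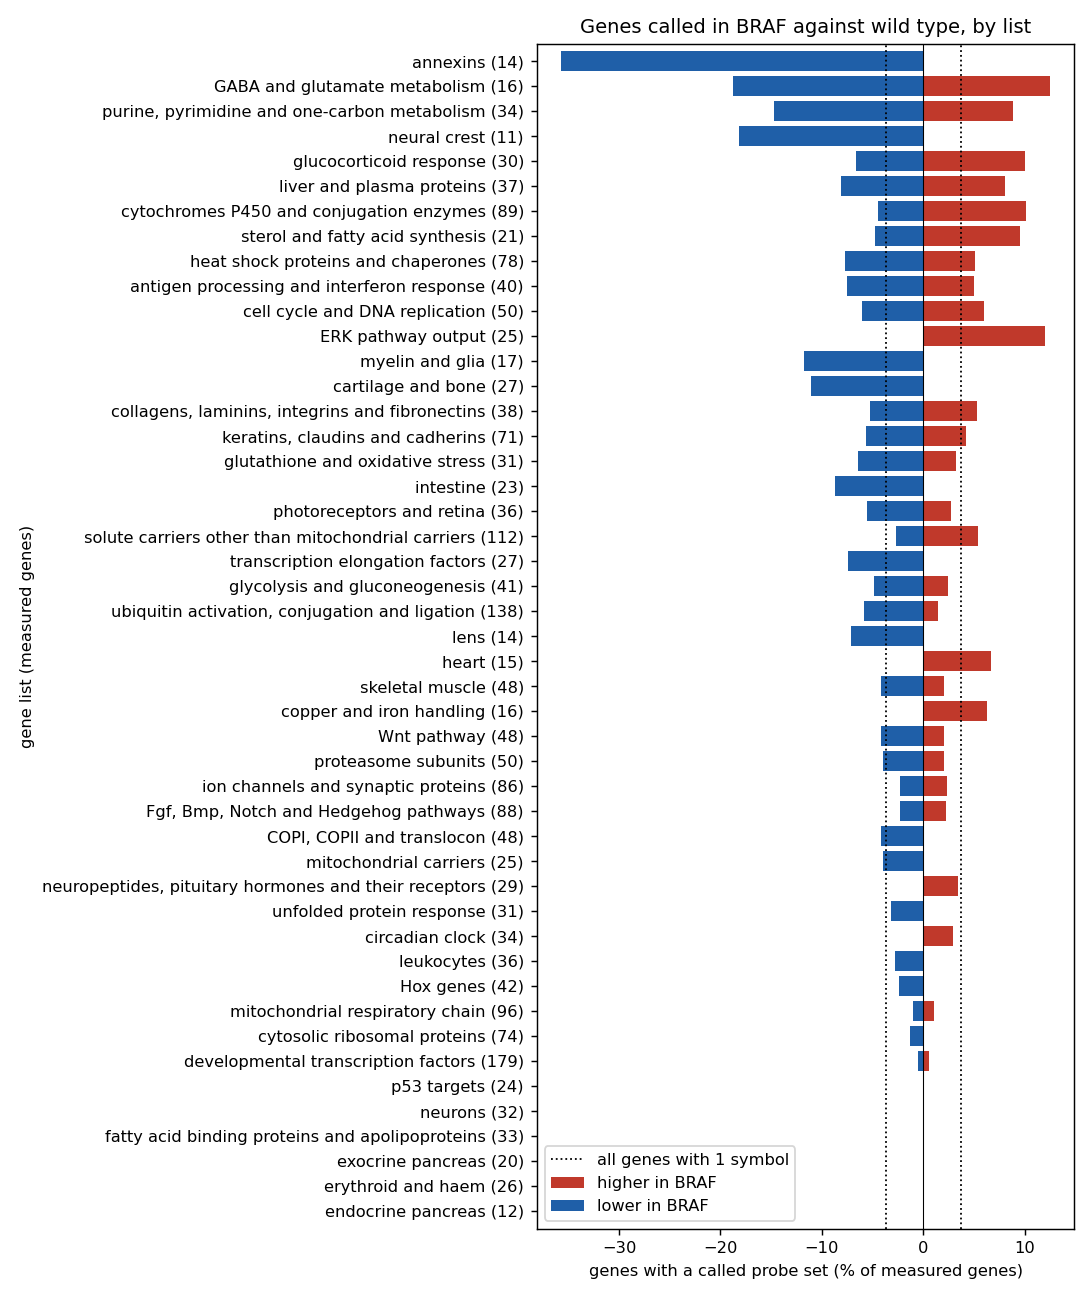
Share of measured genes with a called probe set in each gene list of at least 10 genes, in percent, with genes higher in BRAF to the right of 0 and genes lower in BRAF to the left. The number of measured genes stands in brackets, and the dotted lines mark all named genes (3.71% higher and 3.68% lower). Annexins reach furthest to the left, and the lists at the bottom have 0 called genes. The lists were chosen with earlier results of these data known.

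The list of ubiquitin activation, conjugation and ligation had 138 measured genes and also holds deubiquitinase genes, which remove ubiquitin. Of these 138 genes, 2 rose (1.45%, against 3.71% of all genes) and 8 fell (5.80%, against 3.68%), 9 of the 10 in all 12 fits. The share called in either direction was 7.25%, close to the 7.28% of all genes. After quantile normalization 3 were higher and 10 lower, against 260 and 372 of all 8793 named genes. Without BRAF replicate 1 the counts were 2 and 12, against 348 and 446 of all named genes. Apart from ube2q2, rnf13 and uchl1, the SUMO-targeted ligase gene rnf4 had -1.95, -1.39 and -1.64 in BRAF, against -0.05, 0.09 and -0.08 in wild type (difference -1.65 ± 0.13, limma adjusted p = 3.62e-05). The deubiquitinase gene usp7, which acts on Mdm2 and p53, had -0.53, -1.47 and -1.40 in BRAF and 0.16, 0.00 and 0.41 in wild type. Its fall of 1.33 ± 0.21 passed (limma adjusted p = 0.00333), while a companion had -0.01. The histone H2B ligase gene rnf20 had -0.96, -0.84 and -0.66 in BRAF, against -0.02, 0.52 and 0.02 in wild type, a fall of 0.99 ± 0.14 (limma adjusted p = 0.00192) that its other probe set, at -0.003, did not show. All of these groups were apart. The E2 gene ube2d2 went up, with 1.51, 1.29 and 1.09 in BRAF, against -0.41, 0.13 and -0.26 in wild type (difference 1.47 ± 0.23, limma adjusted p = 0.00281). The nucleolar deubiquitinase gene usp36 rose by 0.93 ± 0.14, with -0.003 on a companion, and the F-box gene fbxo44.9 fell by 1.36 ± 0.20 (limma adjusted p = 0.00281 and 0.00249). For fbxo44.9 wild type stood apart, with means of 1.48 in wild type, 0.12 in BRAF, -0.18 in BRAF;p53 and -0.35 in p53.

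The proteasome list, which holds the assembly chaperone gene psmg2 beside subunits, had 50 genes. Of these, 1 rose, psmg2, and 2 fell (6.0%, a share close to the 7.28% of all genes). The assembly chaperone gene psmg2 had 0.67, 0.47 and 0.40 in BRAF and -0.56, -0.68 and -0.63 in wild type (difference 1.14 ± 0.15, limma adjusted p = 0.00115). Beside psmb10, the ubiquitin receptor subunit gene psmd4b fell by 0.41 ± 0.09 (limma adjusted p = 0.0156, in 10 fits, up to 0.0718 without wild-type replicate 2). In antigen processing and interferon response, 2 of 40 genes rose and 3 fell (12.5%, against 7.28% of all genes). The lysosomal protease gene ctss2.2 fell on both probe sets, with -0.90, -1.004 and -0.97 in BRAF against -0.10, 0.04 and 0.30 in wild type on one (difference -1.04 ± 0.14, limma adjusted p = 0.00144), and -0.94 ± 0.18 on the other. The class I light chain gene b2m rose by 1.15 ± 0.26 and the interferon factor gene irf9 by 0.44 ± 0.11 (limma adjusted p = 0.0234 and 0.0306). They held in 7 and 8 fits, with 0.0989 and 0.114 without wild-type replicate 2. The class I heavy chain gene mhc1zba fell unevenly, at -1.46, -3.23 and -0.65 in BRAF against 0.43, 0.08 and 0.28 in wild type, and held in 6 fits (up to 0.105 without wild-type replicate 1).

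Chaperone genes were called in both directions, 4 of 78 higher and 6 lower (12.8%, against 7.28% of all genes). The heat shock factor genes hsf1 and hsf2, which switch on the chaperones, were both lower. The first had -1.22, -1.22 and -0.95 in BRAF, against 0.85, 1.39 and 0.96 in wild type (difference -2.20 ± 0.30, limma adjusted p = 0.00136), and -1.08 on its other probe set. For hsf2 the values were -0.64, -0.28 and -0.85 in BRAF and 0.18, 0.01 and 0.21 in wild type (difference -0.73 ± 0.14, limma adjusted p = 0.00907). The smaller hsf1 fall held in 4 fits (up to 0.109 without BRAF replicate 3). The paralogous mitochondrial chaperone genes dnaja3a and dnaja3b differed in opposite directions, at 0.82 ± 0.13 and -0.85 ± 0.11 (limma adjusted p = 0.00337 and 0.00082). In dnaja3a the arrays were at 0.72, 0.82 and 0.53 in BRAF and -0.06, 0.04 and -0.38 in wild type, and in dnaja3b at 0.12, 0.00 and -0.01 in BRAF and 1.00, 1.01 and 0.65 in wild type. In dnaja3a the BRAF line stood apart, with BRAF minus the other lines at 0.74 (limma adjusted p = 0.00311). In dnaja3b wild type did, and BRAF minus the other lines was 0.09 (limma adjusted p = 0.572). The Hsp70-binding gene hspbp1 rose by 0.61 ± 0.12 in 11 fits (up to 0.0541 without wild-type replicate 3), and a companion had 0.32. With only the 6 arrays of both genotypes fitted, 1 chaperone gene was higher and 2 were lower. Of 31 genes of the unfolded protein response, 1 was called (3.23%, against 7.28% of all genes). This gene, the endoplasmic reticulum chaperone gene dnajb11, fell by 0.90 ± 0.18 (limma adjusted p = 0.0135, in 11 fits, 0.0598 without wild-type replicate 2).

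Several metabolic lists held a share of called genes above the 7.28% over all genes, in both directions. GABA and glutamate metabolism had 5 of 16 genes called (31.2%), with abat and the alanine transaminase gene gpt higher and gpt2, the glutamate dehydrogenase gene glud1a and the glutamine synthetase gene glula lower. In gpt the values were 0.85, 1.03 and 1.14 in BRAF, against 0.01, -0.23 and -0.49 in wild type (difference 1.24 ± 0.22, limma adjusted p = 0.00593), with 0.43 on a companion. Its paralogue gpt2 had -0.38, -0.80 and -0.71 in BRAF and 0.23, 0.69 and 0.57 in wild type (difference -1.13 ± 0.17, limma adjusted p = 0.00292). The pair of transaminase genes thus lay on opposite sides. The fall of 0.41 ± 0.08 in glud1a held in 10 fits (up to 0.0554 without wild-type replicate 1), and that of 0.53 ± 0.14 in glula in 2 (up to 0.13 without wild-type replicate 1).

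Purine, pyrimidine and one-carbon metabolism had 7 of 34 genes called (20.6%, against 7.28% of all genes), tk1 in both directions. The mitochondrial serine hydroxymethyltransferase gene shmt2 had 0.92, 1.04 and 0.82 in BRAF, against -1.02, -0.49 and -1.18 in wild type (difference 1.82 ± 0.19, limma adjusted p = 0.000225). Its companion had 0.41. The folate enzyme gene mthfd1b rose by 0.64 ± 0.13 (limma adjusted p = 0.0143, in 10 fits, up to 0.0573 without wild-type replicate 1). The guanylate kinase gene guk1a had -2.002, -1.88 and -0.95 in BRAF, against -0.50, 0.01 and 0.04 in wild type, and the nucleoside diphosphate kinase gene nme3 had -0.55, -1.12 and -1.22 in BRAF and 0.24, 0.53 and 0.06 in wild type. They fell by 1.46 ± 0.29 and 1.24 ± 0.17 (limma adjusted p = 0.0111 and 0.00147). The purine salvage gene hprt1 and the purine synthesis gene paics fell by 0.57 ± 0.13 and 0.71 ± 0.18 (limma adjusted p = 0.0206 and 0.0437). They held in 9 and 6 fits, with 0.0839 without wild-type replicate 1 and 0.158 without wild-type replicate 2.

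Among 89 genes of cytochromes P450 and conjugation enzymes, 9 rose and 4 fell (14.6%, against 7.28% of all genes), 5 of the 13 in all 12 fits. The list also holds dehydrogenase genes, which belong to neither class, among them the called adh8b, aldh9a1b and aldh18a1. The median over 111 probe sets was 0.12, against 0.039 over all named probe sets. Array by array, medians over the 89 genes were 0.065, 0.016 and 0.013 in BRAF and -0.006, -0.18 and 0.003 in wild type. Wild-type replicate 2 was thus the lowest of these 6 arrays. The steroid hydroxylase gene cyp17a1 had 1.46, 0.98 and 1.15 in BRAF, against -0.23, -0.53 and -0.26 in wild type (difference 1.53 ± 0.22, limma adjusted p = 0.00181), and a companion had 0.73. The sulfotransferase gene sult6b1 had 0.55, 0.55 and 0.58 in BRAF and -0.22, -0.71 and -0.47 in wild type, and the P450 gene cyp2aa1 had 0.78, 0.80 and 0.53 in BRAF and -0.29, -0.30 and -0.37 in wild type. Both rose by 1.03, with SEs of 0.12 and 0.19 (limma adjusted p = 0.000583 and 0.00753). The P450 gene cyp2p9 fell, with -0.50, 0.41 and 0.36 in BRAF against 1.96, 1.09 and 1.61 in wild type (difference -1.46 ± 0.27, limma adjusted p = 0.00885), whereas cyp2p10 had 0.47 ± 0.12 (limma adjusted p = 0.0436). Further rises were in gsto2, aldh18a1, adh8b, cyp2x10.2 and cyp2aa6, and further falls in sult1st1, aldh9a1b and gstt1b. Calls for gsto2, aldh18a1 and adh8b held in 10, 10 and 9 fits, with up to 0.0676, 0.0532 and 0.083 without wild-type replicates 2, 3 and 2. Those for cyp2x10.2 and cyp2aa6 held in 8 and 4 (0.108 and 0.126 without wild-type replicates 1 and 2). Calls for aldh9a1b, gstt1b and cyp2p10 held in 2, 3 and 3 fits, with at most 0.133, 0.169 and 0.138 without wild-type replicates 2, 1 and 3.

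Sterol and fatty acid synthesis had 2 of 21 genes higher and 1 lower (14.3%, against 7.28% of all genes). The last enzyme gene of cholesterol synthesis, dhcr7, had 0.85, 1.53 and 1.31 in BRAF, against 0.12, -0.93 and 0.01 in wild type (difference 1.498 ± 0.29, limma adjusted p = 0.00986). The farnesyl diphosphate synthase gene fdps rose by 0.63 ± 0.15 (limma adjusted p = 0.0304, in 6 fits, up to 0.111 without wild-type replicate 1), with 0.18 on its other probe set, and the acyl-CoA synthetase gene acsl1a fell in 7 (0.117 without wild-type replicate 2), its other 4 probe sets being at -0.89 to -0.29. In glycolysis and gluconeogenesis, 1 of 41 genes rose and 2 fell (7.32%, a share close to the 7.28% of all genes). The triosephosphate isomerase gene tpi1a had -0.48, -0.94 and -0.64 in BRAF and 0.59, 0.75 and 0.74 in wild type (difference -1.38 ± 0.16, limma adjusted p = 0.000539). The glucose phosphate isomerase gene gpib had 0.01, -0.47 and -0.45 in BRAF, against 0.39, 0.41 and 0.43 in wild type (difference -0.71 ± 0.13, limma adjusted p = 0.00833). The mutase gene pgam1b rose by 0.42 in 7 fits (up to 0.121 without wild-type replicate 2). Respiratory chain genes had few calls, 2 of 96 (2.08%), as did cytosolic ribosomal proteins, 1 of 74 (1.35%), against 7.28% of all genes. In both lists the called genes, ndufv1 and uqcrc2a of the chain and rps27.1 of the ribosome, held in 8, 3 and 4 fits (0.0747 and 0.127 without wild-type replicate 3, and 0.138 without wild-type replicate 2). The difference was -0.58 for ndufv1, -0.43 for rps27.1, with -0.38 and -0.37 on companions, and 0.36 for uqcrc2a, with -0.45 on a companion.

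Of 14 measured lens genes 1 was called (7.14%), a share close to the 7.28% of all genes. The alpha crystallin chaperone gene cryaa had -1.32, -1.17 and -1.38 in BRAF, against 0.40, 0.43 and 0.13 in wild type. The fall of 1.61 ± 0.12 (limma adjusted p = 2.82e-05) left the groups far apart. The remaining 13 measured lens genes, beta and gamma crystallins, connexins and filament genes among them, had differences of -0.26 for bfsp2 to 0.44 for crygm6, none called. In the photoreceptor and retina list, 3 of 36 genes were called (8.33%, a share close to the 7.28% of all genes). The outer segment gene rom1a rose by 1.14 ± 0.22 (limma adjusted p = 0.0105). The transducin subunit gene gnb1b and the retinoid-binding gene rlbp1a fell by 0.66 ± 0.14 and 0.56 ± 0.13 (limma adjusted p = 0.014 and 0.0304). The gnb1b call held in 11 fits and that of rlbp1a in 7 (up to 0.0572 and 0.117 without wild-type replicate 2).

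**Figure D4:**
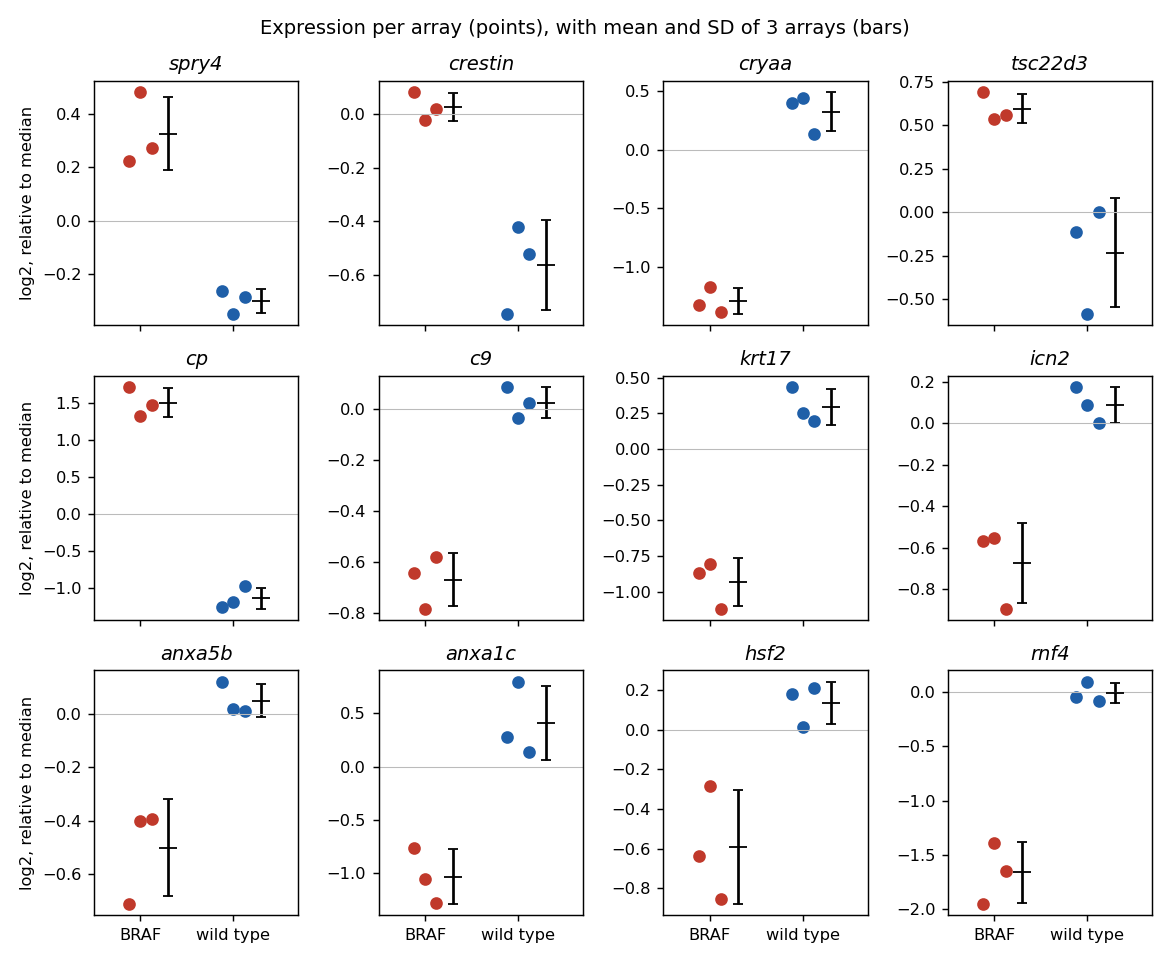
Expression of 12 genes on the log2 scale relative to the median of the 12 arrays, with the 3 BRAF arrays as points on the left of each panel and the 3 wild-type arrays on the right. Bars give the mean and SD of 3 arrays, and each panel has its own vertical scale. The BRAF and wild-type points do not overlap in any panel, though crestin did not pass the test.

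Plasma protein genes of the liver were called in both directions, 3 of 37 higher and 3 lower (8.11% each, against 3.71% and 3.68% of all genes). The terminal complement gene c9 fell on all 3 of its probe sets, by 0.69 ± 0.10, 0.68 ± 0.11 and 0.64 ± 0.11 (limma adjusted p = 0.00217, 0.00493 and 0.00415). The arrays of its leading probe set were at -0.64, -0.78 and -0.58 in BRAF and 0.09, -0.03 and 0.02 in wild type. The inter-alpha-trypsin inhibitor gene itih3a.1 had -0.66, -0.92 and -0.79 in BRAF, against 0.44, 0.65 and 0.66 in wild type (difference -1.37 ± 0.20, limma adjusted p = 0.00212). Beside cp, the fibrinogen gene fgb and the tyrosine catabolism gene hpda rose by 0.49 ± 0.11 and 0.82 ± 0.21 (limma adjusted p = 0.0177 and 0.0408). They held in 11 and 6 fits (0.0731 without wild-type replicate 1 and 0.153 without wild-type replicate 2), and the fall of vtnb held in 6 (0.115 without wild-type replicate 1). Without BRAF replicate 1, 8 liver genes were called higher and 3 lower, against 348 and 446 of all 8793 named genes.

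Of 20 measured exocrine pancreas genes, digestive enzyme genes for the most part, 0 were called, against 7.28% of all genes. All 22 probe sets of the list had a positive difference, with a median of 0.72, and 6 (27.3%, against 18.7% of all probe sets) were higher without overlap. The arrays within each genotype were far apart: medians over the 20 genes, with the probe sets of a gene averaged, were -0.17, 1.28 and 1.23 in BRAF, against 0.37, -1.91 and 0.16 in wild type. The trypsin gene prss1, for example, had 0.04, 1.42 and 1.304 in BRAF and 0.45, -2.12 and -0.04 in wild type, so that BRAF replicate 1 lay inside the wild-type range. Without BRAF replicate 1 the median difference was 1.47 and 3 of the 20 genes were called higher, against 348 of all 8793 named genes. In the other lines the medians ran from -1.34 to -0.998 in BRAF;p53 and from -1.74 to 1.17 in p53. Of 23 intestine genes, 0 rose and 2 fell (8.7%, against 3.68% of all genes). These were sult1st1 and the galectin gene lgals2a, lgals2a in 2 fits (up to 0.153 without wild-type replicate 2). Of 12 endocrine pancreas genes 0 were called, against 7.28% of all genes.

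**Figure D5:**
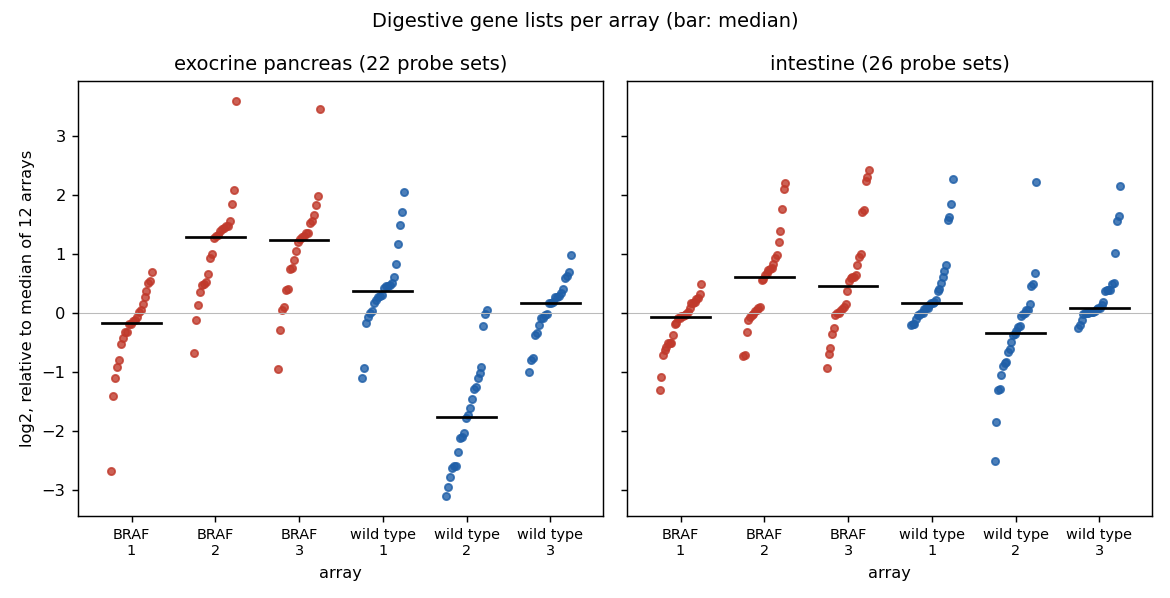
Values of the probe sets of the exocrine pancreas list (left) and the intestine list (right) on each BRAF and wild-type array, on the log2 scale relative to the median of the 12 arrays. Points are probe sets, sorted within an array, and bars are their medians, which differ slightly from medians over genes. Wild-type replicate 2 lies lowest in both lists, and BRAF replicates 2 and 3 lie highest.

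Skin and epithelial genes were called in both directions. Of 71 genes of the keratin, claudin and cadherin list, 3 were higher and 4 lower (9.86%, against 7.28% of all genes). The list also holds icn2 and epcam, which belong to none of these families. The keratin gene krt17 had -0.87, -0.81 and -1.12 in BRAF, against 0.44, 0.25 and 0.20 in wild type, and krt94 had 1.11, 0.97 and 0.76 in BRAF and -0.24, -0.79 and -0.33 in wild type. The differences were -1.23 ± 0.14 and 1.401 ± 0.15 (limma adjusted p = 0.000549 and 0.000332). The ictacalcin gene icn2, of an epithelial calcium-binding S100 protein, fell on both probe sets, by 0.76 ± 0.12 and 1.07 ± 0.18 (limma adjusted p = 0.00281 and 0.00439). Its first probe set had -0.57, -0.55 and -0.90 in BRAF and 0.18, 0.09 and 0.00 in wild type. The remaining calls were krt1-19e at -0.46 ± 0.08 (companion -0.33), cldn15b at -0.79 ± 0.19, krt15 at 0.86 ± 0.19 and epcam at 0.77 ± 0.20 (companion 0.03). Calls for cldn15b, krt15 and epcam held in 7, 9 and 2 fits, with at most 0.118 and 0.137 without wild-type replicate 2 for cldn15b and epcam and 0.0699 without BRAF replicate 2 for krt15.

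In the skeletal muscle list 3 of 48 genes were called (6.25%) and in the heart list 1 of 15 (6.67%), against 7.28% of all genes. The cardiac and slow muscle calcium pump gene atp2a2a had 1.37, 1.24 and 1.25 in BRAF, against -0.06, -0.14 and 0.21 in wild type. Its rise of 1.29 ± 0.11 (limma adjusted p = 4.27e-05) was not shared by its other probe set, at -0.10. The fast muscle calcium buffer gene pvalb3 had -0.19, -0.56 and -0.53 in BRAF and 0.49, 0.29 and 0.27 in wild type, and fell by 0.78 ± 0.12 (limma adjusted p = 0.00275). The myosin-binding gene mybpc2b fell by 0.61 ± 0.13 in 8 fits (up to 0.0559 without BRAF replicate 2), and the filament gene desma rose in 4 (up to 0.134 without wild-type replicate 1).

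In cartilage and bone, 0 of 27 genes rose and 3 fell (11.1%, against 3.68% of all genes), none of them in all 12 fits. The falls were 0.58 ± 0.11 in the gelsolin family gene scinlb, 0.55 ± 0.13 in the matrilin gene matn1 and 0.85 ± 0.20 in the link protein gene hapln1a (limma adjusted p = 0.0116, 0.0304 and 0.0321). They held in 11, 6 and 7 fits, with at most 0.05, 0.103 and 0.109 without wild-type replicate 3, BRAF replicate 2 and wild-type replicate 2, and the other 5 hapln1a probe sets had -0.32 to 0.34. Of 38 matrix and integrin genes, 2 rose and 2 fell (10.5%, against 7.28% of all genes). The fibril-associated collagen gene col14a1a fell beside col1a2, with -0.71, -0.99 and -0.61 in BRAF against 0.62, 0.29 and 0.33 in wild type (difference -1.18 ± 0.18, limma adjusted p = 0.00281). The collagen X gene col10a1b rose, with 0.43, 0.80 and 0.68 in BRAF against 0.00, -0.12 and 0.01 in wild type (difference 0.67 ± 0.11, limma adjusted p = 0.00497). The fibronectin gene fn1b had 0.39 ± 0.10 in 4 fits (up to 0.128 without BRAF replicate 2).

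Of 32 neuron genes 0 were called, with a median of -0.11 over 45 probe sets, and of 26 erythroid and haem genes 0 were called, against 7.28% of all genes. Among 17 myelin and glia genes, 2 were called (11.8%, against 7.28% of all genes): glula and the water channel gene aqp1a.1 fell, aqp1a.1 by 0.36 ± 0.09 in 3 fits (up to 0.115 without wild-type replicate 1). Of 36 leukocyte genes, 1 was called (2.78%, against 7.28% of all genes). This gene, arhgdig, fell, with -0.77, -0.39 and -0.55 in BRAF against 0.23, 0.35 and 0.23 in wild type (difference -0.84 ± 0.13, limma adjusted p = 0.00248), and a companion had -0.02.

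Of 88 genes of the Fgf, Bmp, Notch and Hedgehog pathways, 3 were called (3.41%, against 7.28% of all genes), nrarpa in both directions. The TGF-beta effector gene smad3a had 0.68, 1.00 and 1.14 in BRAF, against -0.30, -0.74 and -0.57 in wild type (difference 1.48 ± 0.23, limma adjusted p = 0.0028). The inhibitor of differentiation gene id4 fell by 0.60 ± 0.15 in 7 fits (up to 0.133 without wild-type replicate 1). In the Wnt list, 3 of 48 genes were called (6.25%, a share close to the 7.28% of all genes). Beside wls, the secreted antagonist gene sfrp5 had -0.51, -1.08 and -0.62 in BRAF and 0.32, -0.04 and 0.41 in wild type (difference -0.96 ± 0.16, limma adjusted p = 0.00419), while a companion had -0.06. The corepressor gene tle2a fell in 4 fits (up to 0.122 without wild-type replicate 2). Of 42 Hox genes, 1 was called (2.38%, against 7.28% of all genes). This gene, hoxc13a, fell, with -0.61, -0.56 and -0.49 in BRAF against 0.05, 0.46 and 0.11 in wild type (difference -0.76 ± 0.12, limma adjusted p = 0.00333).

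Cell cycle and DNA replication had 5 of 50 genes called, against 7.28% of all genes, tk1 in both directions. The spindle gene nusap1 fell on 2 probe sets, by 1.04 ± 0.14 and 0.85 ± 0.19 (limma adjusted p = 0.00116 and 0.023), with -0.85, -0.89 and -0.84 in BRAF against 0.07, 0.30 and 0.15 in wild type on the leading one. The smaller fall held in 10 fits (up to 0.0952 without wild-type replicate 2), and a companion had -0.41. The replication licensing inhibitor gene gmnn and the polymerase subunit gene pold2 each rose by 0.63 in 8 fits (limma adjusted p = 0.0222 and 0.0299, up to 0.095 and 0.119 without wild-type replicate 2). The cyclin gene ccnb1 had -0.65 ± 0.17 and passed in 1 of 12 fits (up to 0.168 without wild-type replicate 2).

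Of the glucocorticoid response list, 5 of 30 genes were called (16.7%, against 7.28% of all genes). The glucocorticoid-induced leucine zipper gene tsc22d3 had 0.69, 0.54 and 0.56 in BRAF, against -0.11, -0.59 and 0.00 in wild type, without overlap (difference 0.83 ± 0.15, limma adjusted p = 0.00679). The transcription factor gene zbtb16a, also known as a glucocorticoid target in mammals, had -0.33, -0.28 and -0.43 in BRAF and 0.82, 1.15 and 1.101 in wild type (difference -1.37 ± 0.15, limma adjusted p = 0.000332). Its means were 0.42 in BRAF;p53 and -1.23 in p53, and BRAF minus the other lines was 0.06 (limma adjusted p = 0.803). The cytokine feedback gene socs3b rose by 0.82 ± 0.21 in 3 fits (up to 0.151 without wild-type replicate 2), beside errfi1a higher and glula lower. In the circadian list of 34 genes, 1 was called (2.94%, against 7.28% of all genes). This gene, the nuclear receptor gene rorcb, rose by 1.34 ± 0.34 in 5 fits (up to 0.13 without wild-type replicate 2). After quantile normalization or with centred array medians, 0 circadian genes were higher and 1 lower.

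Transport and trafficking lists were near the share of all genes or below it. Of 112 solute carrier genes 8 were called (7.14%), slc37a4a in both directions. The cation and chloride cotransporter family gene slc12a9 rose by 1.41, with 0.0009 on its other probe set, and slc35h1, slc38a7, slc4a4b and slc35f6 rose by 0.87, 0.82, 0.65 and 0.57, with 0.61 and 0.40 on the companions of slc38a7 and slc35f6. The folate transporter gene slc46a1 and the vesicular nucleotide transporter gene slc17a9b had differences of -0.98 and -0.59. Only slc12a9 and slc37a4a of these were called in all 12 fits. The others held in 8 to 11, with at most 0.0999 without wild-type replicate 2 for slc17a9b. In the COPI, COPII and translocon list of 48 genes, 2 were called (4.17%, against 7.28% of all genes). The retrieval receptor gene kdelr2a fell by 0.99 beside copb2 in 9 fits (up to 0.0593 without wild-type replicate 1), with -0.20 on its other probe set. Of 31 glutathione and oxidative stress genes, 3 were called (9.68%, against 7.28% of all genes). Among them gsto2 rose by 0.94, as given above, and nqo1 and prdx1 had -0.46 and -0.53 in 9 and 7 fits (0.0589 and 0.0896 without wild-type replicate 1). The prdx1 companions had -0.31 and -0.12. The elongation factor list of 27 genes had 2 called (7.41%, a share close to the 7.28% of all genes). These were elof1 and cdk9, lower at -0.78 and -0.45, in 11 and 8 fits (0.0665 and 0.104 without wild-type replicate 2). The elof1 companion had -0.09. Among 86 channel and synaptic genes, 3 were called (3.49%, against 7.28% of all genes), snap29 in both directions. The potassium channel gene kcnn1b rose by 1.06 in 9 fits (up to 0.0548 without wild-type replicate 1), while the NMDA receptor gene grin1a had -0.51 in 4 fits (up to 0.13 without wild-type replicate 2). Of 33 fatty acid binding protein and apolipoprotein genes, 0 were called, against 7.28% of all genes. The median over their 38 probe sets was 0.086, against 0.039 over all named probe sets.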

How the data were processed

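Total RNA of whole zebrafish embryos was hybridised to 12 Affymetrix arrays, 3 per genotype. The authors deposited log2 values of 15617 probe sets from GCRMA (named in the submitters' processing notes), with the version not given in the sources used here. After undoing the log, the 12-array median was 1 (within 0.0001) for 89.2% of probe sets and below 1 for 1680, so values were centred by probe set. Brightness and signal over background are unknown, the planned filter on low values and pseudocount could not apply, and the number of arrays limits the precision.

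Here limma 3.58.1 (R 4.3.3, lmFit and eBayes) was fitted with 1 mean per genotype over all 12 arrays, and BRAF minus wild type and BRAF minus the mean of the other lines were tested, two-sided, with Benjamini-Hochberg adjustment over 15502 probe sets at 0.05. The fit was tested on simulated data. Gene names came from GEO's platform annotation: 1 symbol for 10795 probe sets, more than 1 for 135, no symbol for 4572. RefSeq held 10711 by Entrez number. An Affymetrix cluster number defined a target. Genotypes came from the labels.

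Genes were named by rule: the 15 largest rises and falls among called probe sets whose arrays did not overlap, genes called the same way on several targets, up to 6 called members of each of 52 gene lists by smallest p, and 13 genes chosen singly. Other genes are given as further members or companions and were chosen after their values were seen. Genes and lists were chosen with earlier results of these data known. Lists are described by counts and medians, without a test. Alternatives were a replicate block, quantile normalization, centred array medians, trend and robust eBayes, array weights, only the genotypes compared, averaging p53 samples 1a and 1b, averaging the probe sets of a gene, leaving out probe sets of median below 1, a difference of at least 1, and leaving out each array. Further software was matplotlib 3.10.9 and numpy 2.4.6, with pandas 2.3.3 under Python 3.11.15.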

Additional observations from a re-analysis of the deposited data

How the results depend on the processing

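For BRAF against wild type, 993 probe sets were called. With array weights, which were 0.181, 5.27 and 0.769 for BRAF replicates 1, 2 and 3, the count was 3093. It was 598 with only the genotypes compared, 595 genes with the probe sets of a gene averaged, and 350 with a difference of at least 1. Leaving out each array gave 595 to 1188. Quantile normalization left 966 calls, 41.0% of them higher, and centred array medians 997, 43.1% higher, against 49.7% as reported. For BRAF against the mean of the other lines the count was 1103, with 3954 under array weights, 683 genes with probe sets averaged and 257 with a difference of at least 1. It ran from 733 to 1135 without 1 array, and quantile normalization left 823, of which 357 were higher and 466 lower. No pairing by replicate number was seen: deviations of same-numbered BRAF and wild-type arrays correlated at 0.09, -0.21 and 0.24. Those of differently numbered arrays correlated at -0.29 to 0.23. With 3 arrays per genotype this check cannot exclude a pairing. A replicate block left 996 calls, 881 of them shared, and 1186 against the other lines. Of the 160 named probe sets that were called, 52 lost the call with only the genotypes compared, 56 without wild-type replicate 1 and 54 without wild-type replicate 2. Reversed signs came only from averaging the probe sets of a gene: snap29 at -0.26 and uqcrc2a at -0.043. Signal over background is unknown here, so a small difference may reflect a dim probe set or a small change.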

Other observations

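In the order of genes along the chromosomes, called genes were looked at in windows of 20 consecutive measured genes, after their values had been seen. Of 8722 placed genes 7.28% were called, the median window held 1 called gene, and the fullest held 7. One such window held emp2, usp7, arhgdig, abat, si:ch211-76l23.4, lgals2a and apol, and another held emc4, lpcat4, zgc:66473, cbln11, capn1, zgc:101810 and nit1. In the window with abat, 2 called genes were higher in BRAF and 5 lower, from abat at 2.92 to si:ch211-76l23.4 at -1.76. In the window with cbln11, 5 were higher and 2 lower, from cbln11 at 2.97 to lpcat4 at -1.54. The gene order is that of the RefSeq assembly GRCz12tu.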
